A study of Mus musculus with 26 samples.

Results

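The immediate early genes described here are 10 genes picked by symbol: Fos, Fosb, Jun, Junb, Jund, Egr1, Egr2, Ier2, Zfp36 and Dusp1. All 10 were listed in both RNA-seq tables of the series, among 19404 genes in the deletion table and 19719 in the knockdown table. The study removed Brg1, the ATPase of the BAF (SWI/SNF) chromatin remodelling complexes encoded by Smarca4, from mouse pro-B cells in culture. All cells were B220+ bone marrow cells of C57/Bl6 mice, grown for 7 days with IL7 and SCF. In the deletion experiment, Brg1F/F x ER-Cre cells (2 libraries) were set against Brg1+/+ x ER-Cre cells (2 libraries). Both carried the tamoxifen-inducible Cre and both received 0.3 µM tamoxifen over the final 60 hours. For the knockdown, cells from Rag1-/- mice, which lack the recombinase for V(D)J joining, received retrovirus on days 3 and 4 and were enriched by a human CD25 tag. They carried either the hairpin against Brg1 (3 libraries) or a control hairpin (3 libraries). No label states that the libraries within a group are from separate mice or cultures, so p-values measure only the spread between these libraries, which may be technical.

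Immediate early genes are transcribed within minutes of a signal, without new protein synthesis, and most of their RNAs are short-lived. ERK and p38 signalling acts on SRF with its TCF partners at CArG boxes, and on CREB at cAMP response elements (CRE), in front of many of them. Their products include transcription factors of the AP-1 and EGR families, and feedback proteins such as the RNA-decay factor Zfp36 and the MAPK phosphatase Dusp1. In developing B cells, IL7 and pre-B receptor signals run through these cascades.

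The target of the experiments was measured first. The Smarca4 mean was 17898 normalized reads in deletion controls and 6067 after deletion, 2.95-fold lower (adjusted p = 0.0008, authors' deposited table). After knockdown it was 6743 against 13340, 1.98-fold lower (adjusted p = 0.0472, authors' deposited table). Smarca4 carries a mark named "confounded" in both tables, which no source used here defines. Normalized reads are reads divided by a size factor per library, and each group has 1 deposited mean. In the deletion table, whole reads in each library could be worked back from the 2 group means for 18579 genes with 1 solution. The libraries so recovered carry no replicate number, so the deeper library of each group is called A and the other B. Depth was about 8.70 to 11.7 M reads per library for the deletion and 5.20 to 11.1 M for the knockdown.

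Upstream sequences are shown for Zfp36, which passed the test, for Fos and Fosb, whose values moved together between libraries, and for Dusp1, whose window holds a full CRE. RefSeq start sites on GRCm38.p6 were searched for 9 members, all but Egr1, and 8 of these matched, all but Ier2. Each sequence runs 5′ to 3′ on the gene's own strand towards its start and stops before the gene model of the deposited tables. Capitals mark matches, on either strand, to the motifs named after the sequences.
Zfp36 (chr7:28379256-28379428, minus strand): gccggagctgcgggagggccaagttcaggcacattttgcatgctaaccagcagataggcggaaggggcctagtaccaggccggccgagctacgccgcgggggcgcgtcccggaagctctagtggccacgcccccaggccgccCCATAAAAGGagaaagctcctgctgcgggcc
Fos (chr12:85473690-85473889, plus strand): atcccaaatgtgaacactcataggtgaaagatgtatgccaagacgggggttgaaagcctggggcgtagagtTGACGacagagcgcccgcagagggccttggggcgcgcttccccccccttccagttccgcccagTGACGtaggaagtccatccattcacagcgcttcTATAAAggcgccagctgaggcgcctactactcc
Fosb (chr7:19310046-19310245, minus strand): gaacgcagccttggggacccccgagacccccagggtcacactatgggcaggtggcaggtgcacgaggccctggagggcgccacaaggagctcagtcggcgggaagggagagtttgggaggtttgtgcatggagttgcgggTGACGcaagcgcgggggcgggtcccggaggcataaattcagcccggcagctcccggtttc
Dusp1 (chr17:26508520-26508672, minus strand): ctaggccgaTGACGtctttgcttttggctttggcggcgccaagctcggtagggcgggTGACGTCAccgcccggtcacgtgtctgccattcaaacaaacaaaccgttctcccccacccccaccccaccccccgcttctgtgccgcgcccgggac

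The search covered 300 bases per start site, from 250 before to 50 after it, on both strands. The motifs were the CRE TGACGTCA, its half-site TGACG (which lies within the full CRE), the AP-1 site TGANTCA, the TATA box TATAAA and the CArG box. The half-site was found in 5 of the 8 matched members (Fos, Fosb, Junb, Egr2 and Dusp1) and in 20.8% of all 32851 promoters. A member counts where any of its start sites matches, as 3 of the 5 of Egr2 did. The windows of these 3 overlap and hold the same half-sites. Counted by member, the half-site was found in 23.0% of 27025 gene symbols. The full CRE was found in Dusp1 alone, at position -143 from the RefSeq start, and in 1.79% of all promoters. A CArG box was found in Zfp36, at position -58, and at 4 of the 5 start sites of Egr2, against 1.63% of all promoters and 1.81% of genes. In Egr2, 3 of those windows overlap and hold the same box, so the 4 are not separate matches. TATAAA was found in Fos, at position -33, and in Junb at position 0, on the start itself, against 13.6% of all promoters and 15.7% of genes. No matched member held TGANTCA, which 7.81% of all promoters did. A match to these letters describes the window and is not a measured binding site.

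One gene of the 10, Zfp36, passed the authors' test after Brg1 deletion, and it rose. Among all genes of the deletion comparison, 1.47% were called at an adjusted p under 0.05, and 0.732% were called higher. Zfp36 encodes tristetraprolin, which binds AU-rich elements in cytokine and immediate early RNAs and recruits the CCR4-NOT deadenylase. The gene lies at chr7:28376784-28379255 (mm10). Its normalized reads were 730.3 in control library A and 1159.9 in control library B, against 2547 and 1998 in Brg1-deleted libraries A and B. Both deleted libraries lay above both controls. In the authors' deposited table the group means were 945 and 2272, 2.40-fold higher after deletion (log2 fold change 1.27, adjusted p = 0.0187). In limma on the recovered reads without pairing, the log2 difference was 1.29 with an SE of 0.27 and an adjusted p of 0.138, which ends the call, and 0 of 17001 genes passed there (2883 at an unadjusted p under 0.05). With libraries joined by their likeness as a block, a joining chosen from the values themselves, 17.6% of genes were called by limma, Zfp36 among them (adjusted p = 0.0025). With 2 libraries against 2, an exact two-sided permutation test of a single gene cannot give a p below 0.333. After knockdown the Zfp36 mean was 929.8 against 645 in the control (log2 fold change 0.53, adjusted p = 1, authors' deposited table). Markers from lists of cell types, pro-B cells included, also moved with deletion. Of 11 listed neutrophil markers 3 were called lower (Prtn3, Ctsg and Elane) and 10 were below 0, beside 0.742% and 50.1% of all genes. Prtn3 had a log2 fold change of -2.44 (adjusted p = 1.15e-06, authors' deposited table). S100a8 at -0.71 and S100a9 at -0.45 were not called, and their libraries overlapped between genotypes. Of 10 listed T and innate lymphoid markers 2 were called lower, Thy1 and Lck, with 7 below 0 and 3 above. In deletion controls Thy1 and Lck had means of 266 and 195, while the others on that list had 2.49 to 19.3. Which cells the Thy1 and Lck reads came from was not tested. After knockdown Lck was higher, at a log2 fold change of 0.64 (unadjusted p = 0.0188, authors' deposited table). Of 12 listed pro-B markers 1 was called higher after deletion, Cd79b, with 7 above 0 and 5 below. Dntt was among the lower ones, at -1.92 (adjusted p = 0.163, authors' deposited table). The part of these markers in the Zfp36 value was not tested. Whether the 2 experiments differ in Zfp36 was not tested, because their tables were normalized separately.

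None of the 10 passed the authors' test after knockdown, where 0.218% of all genes were called. The lowest unadjusted p of a member there was 0.3005, for Fosb, so 0 members had an unadjusted p under 0.05. The median log2 fold change over the 10 was -0.04 after deletion and 0.27 after knockdown, beside medians of 0.00 over all genes in both tables. The deletion median turned to 0.15, with 4 of 9 below 0, on log values of the recovered libraries, and ran from -0.34 without control A to 0.87 without control B. After deletion 5 members were below 0 and after knockdown 2, against 50.1% and 50.3% of all genes. The direction was the same in both experiments for 5 of the 10 members (4 higher and Fos lower) and for 71.9% of the 17846 genes listed in both.

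**Figure D1:**
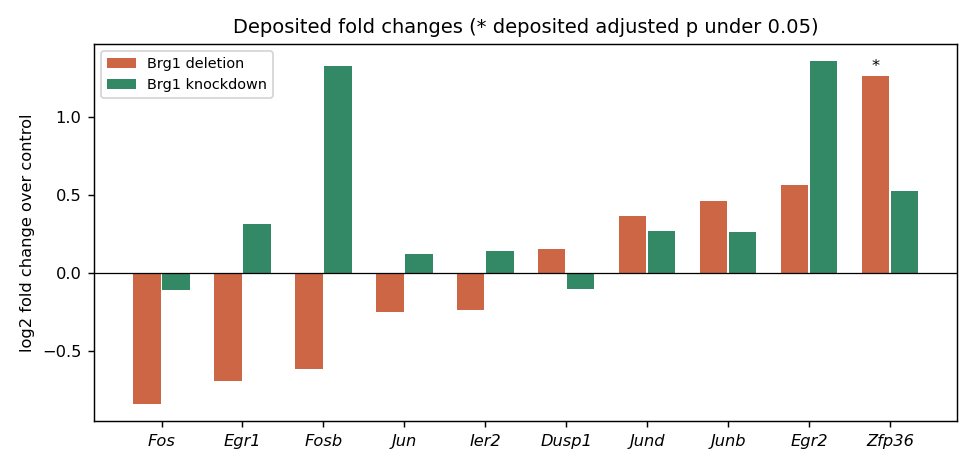
Deposited log2 fold changes of the 10 genes (y axis, Brg1-depleted over control mean) for deletion (orange, 2 libraries per group) and knockdown (green, 3 per group); the star marks a deposited adjusted p under 0.05. Zfp36 after deletion, at 1.27, is the one bar with a star, and the deletion bars run from -0.84 for Fos upward.

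The RNAs of Fos and Fosb, whose proteins pair with JUN proteins to form AP-1, showed the widest spread between libraries of the same genotype. Fos (chr12:85473890-85477273) had 12.7 normalized reads in control library A and 250.2 in control library B. It had 120.1 in Brg1-deleted library A and 26.7 in library B. Control B and deleted A were thus high, control A and deleted B were low, and the 2 genotypes overlapped. The group means, 131 and 73.4, give a deposited log2 fold change of -0.84 with an unadjusted p of 0.734. On the log scale over the recovered libraries, limma without pairing gave a difference of 0.00 with an SE of 1.49.

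Fosb (chr7:19302721-19310045), a close relative of Fos, followed the same libraries. Its normalized reads were 3.90 and 150.1 in control libraries A and B, and 92.4 and 8.14 in deleted libraries A and B. The means of 77.0 and 50.3 give a deposited log2 fold change of -0.61, whereas limma without pairing gave 0.15 with an SE of 1.92. The sign of the Fosb difference thus depended on whether means or log values were compared. The higher library held 19.7 times the Fos level of the lower among controls and 4.49 times among deleted libraries. For Fosb these ratios were 38.5 and 11.4, while the median gene with a mean of at least 20 had ratios of 1.22 and 1.23. Of those 10922 genes, 0.403% had both ratios as high as Fos and 0.284% as high as Fosb.

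**Figure D2:**
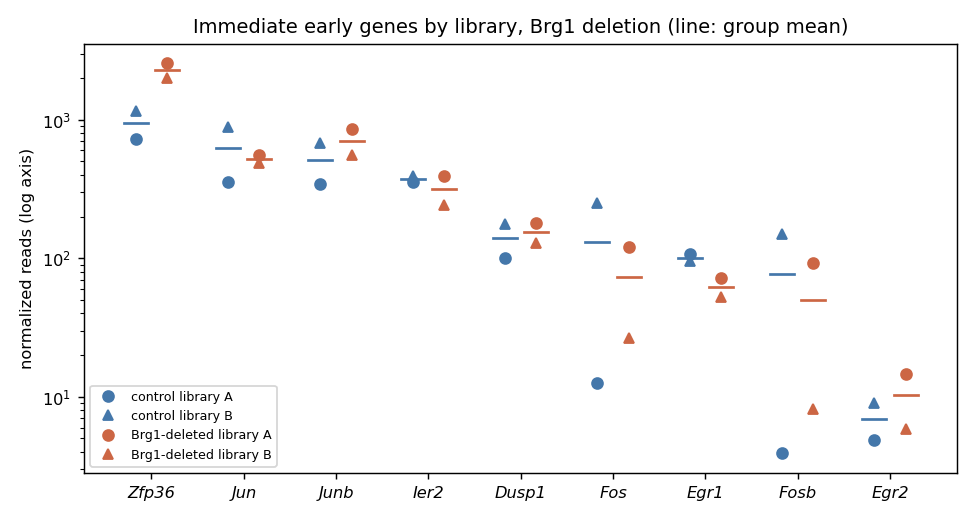
Normalized reads (log axis) of the 9 resolved genes in the 2 control libraries (blue) and the 2 Brg1-deleted libraries (orange), circles for library A, triangles for library B and lines for the group means. Fos and Fosb are high in control B and deleted A, and the 2 genotypes do not overlap for Zfp36 and Egr1 only.

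The JUN proteins bind DNA as pairs among themselves or with FOS proteins. Jun (chr4:95049034-95052222) had 358 and 884 normalized reads in control libraries A and B, and 556 and 489.6 in deleted libraries A and B. Both deleted libraries lay between the controls, and the deposited log2 fold change of -0.25 had an unadjusted p of 0.742. Junb (chr8:84976909-84978748), often a weaker activator than Jun, had 346 and 682 in the controls and 860.5 and 552 in the deleted libraries. The genotypes overlapped, and the deposited log2 fold change of 0.46 had an unadjusted p of 0.351. Jund (chr8:70697739-70700616), the member with steady expression in many resting cells, had 1457 and 3854 normalized reads in control libraries A and B, while its deleted mean left 2 solutions of opposite order. Its means were 2655 and 3425, a deposited log2 fold change of 0.37 with an unadjusted p of 0.58. Jun and Jund carry the undefined mark "confounded", as Smarca4 does.

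The EGR proteins are zinc finger factors induced by ERK signalling. Egr1 (chr18:34859823-34864984) had 107 and 95.1 normalized reads in the controls and 72.6 and 52.3 in the deleted libraries. Egr1 was the other member whose genotypes did not overlap, with both deleted libraries lower, yet its deposited log2 fold change of -0.70 had an unadjusted p of 0.172 and an adjusted p of 1. Egr2 (chr10:67535475-67542188), known with Egr3 as a brake on T cell activation, had few reads. It had 4.88 and 9.01 normalized reads in the controls and 14.7 and 5.81 in the deleted libraries, or 5 to 17 reads in each. The genotypes overlapped. Over all 9 resolved members, 2 did not overlap between genotypes, beside 48.3% of the 17001 genes that were resolved and averaged 1 or more.

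Dusp1 and Ier2 had the smallest fold changes of the 10 after deletion. Dusp1 (chr17:26505590-26508519), a nuclear phosphatase that switches off p38, JNK and ERK, had 100.4 and 178 normalized reads in the controls and 181 and 129 in the deleted libraries. The genotypes overlapped, with a deposited log2 fold change of 0.15 and an unadjusted p of 0.684. Ier2 (chr8:84661331-84662852), a small nuclear protein of the early response, had 357 and 390.3 in the controls and 392 and 242 in the deleted libraries. Deleted library B was the low one, and the deposited log2 fold change of -0.24 had an unadjusted p of 0.615.

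Most members shared a direction between libraries of the same genotype, with sizes that differed widely. Control library B was above control library A for 8 of the 9 resolved members, all but Egr1. Deleted library A was above deleted library B for all 9. Both held for 8 of 9 members, beside 34.3% of all 17001 resolved genes. These counts score direction only. Between controls the ratio was 1.09 for Ier2, which 75.7% of genes with a mean of at least 20 reached. For Fosb it was 38.5, which 0.449% reached. Between deleted libraries the ratio was 1.13 for Jun, which 67.2% reached, and 11.4 for Fosb, which 0.870% reached. The 5 genes with a mean of at least 100 whose profile over the 4 libraries lay nearest to the members' mean profile were Cd300a, Cyba, Ifi27, Cmpk2 and Crlf2. Likeness was the Euclidean distance of centred log2 values over 4 libraries, 0.16 for Cd300a and 0.26 for Crlf2. Cd300a, the nearest of the 5, had 67.3 and 178 normalized reads in control libraries A and B, and 190.1 and 80.2 in deleted libraries A and B. Fos and Fosb weighed most in the members' mean profile. Their centred log2 values in control libraries A and B were -2.12 and 2.13 for Fos, and -2.62 and 2.48 for Fosb.

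Markers of macrophages and monocytes moved with the same libraries. All 12 listed markers were above the other library of their genotype in control B and deleted A. Their summed level was 2578 and 7543 normalized reads in control libraries A and B, and 5125 and 1934 in deleted libraries A and B. Lyz2 alone made up most of each sum, with 2086 and 5288 in the controls and 3335 and 1527 in the deleted libraries. C1qb, a complement gene of macrophages, had 11.7 and 210.2 in the controls and 117 and 9.30 in the deleted libraries. Marco, a macrophage receptor with few reads in any library, was at 0 in control A and deleted B and had 6 reads in control B and 2 in deleted A. Mast cell and basophil markers took that direction in 7 of 8 genes, with sums of 249.6 and 629 in the controls and 632 and 250.02 in the deleted libraries. Neutrophil markers did so in 1 of 10, and S100a8 ran the other way, at 208 and 13.0 in the controls and 0.86 and 134 in the deleted libraries. Stromal markers took the direction of the macrophage markers in 5 of 7 genes, at low sums of 18.5 and 60.0 in the controls and 44.1 and 12.8 in the deleted libraries. Of the pro-B markers, Il7r, the receptor for the IL7 in the medium, had 1801 and 1040 in the controls and 651 and 2442 in the deleted libraries. The part of these cell markers in the Fos and Fosb values was not tested. In bulk RNA, fewer cells of a type and less RNA per cell cannot be told apart.

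**Figure D3:**
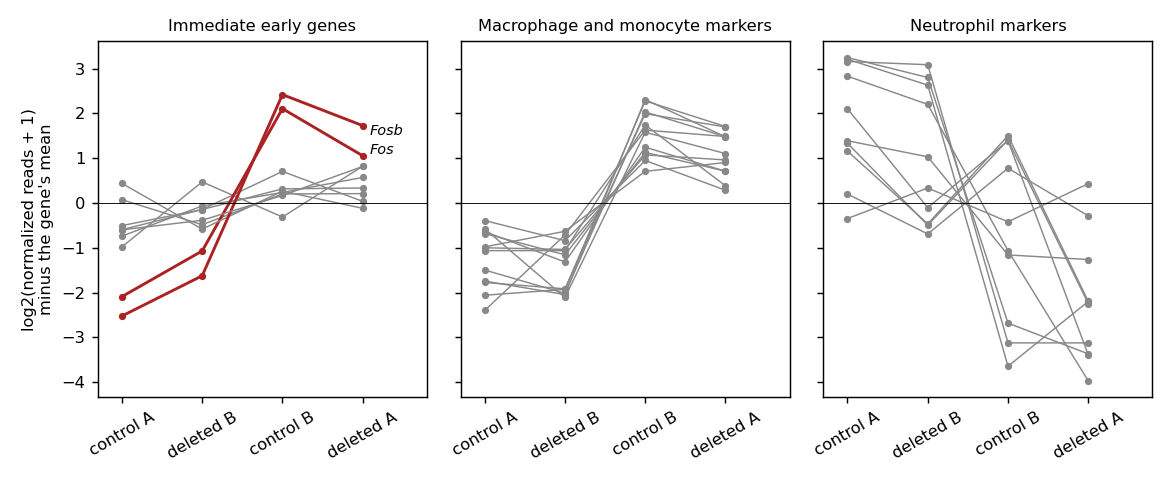
Each line is a gene's log2(normalized reads + 1) in the 4 deletion libraries minus its mean (y axis), for the 9 resolved immediate early genes (left), 12 macrophage and monocyte markers (middle) and 10 neutrophil markers (right). Fos and Fosb (red) lie above their mean in control B and deleted A, as the macrophage markers do, while S100a8 and S100a9 are among the neutrophil genes that lie above theirs in control A and deleted B.

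All 10 members, and the macrophage markers as a sum, had lower means in the knockdown table than in the deletion table. The summed means of the 12 listed macrophage markers were 343 in the knockdown control and 403 after knockdown, beside 5060 and 3529 in the deletion table. Most of each sum was Lyz2, at 182 and 222 for the knockdown and 3687 and 2431 for the deletion. The Fos means were 18.1 in the control and 16.7 after knockdown, and those of Fosb 4.89 and 12.3. These tables were normalized separately, so the levels stand side by side without a test. Worked back from the means, Fos had 16.9, 15.1 and 22.2 normalized reads in the 3 knockdown controls, a narrow range beside that of the deletion controls. Fosb had 0.84, 1.88 and 11.9 in the controls, or 1, 2 and 7 reads. After knockdown, the means of Fos and Fosb each left 2 solutions, so no value by library is given. Egr2 had 3.38, 1.88 and 0 in the controls and 0.78, 9.62 and 3.11 after knockdown, which overlap. The knockdown fold changes of Fosb (1.33 on the log2 scale) and Egr2 (1.36) thus rest on a few reads per library.

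The remaining 6 members had deposited log2 fold changes between -0.10 and 0.31 after knockdown. The Egr1 mean was 51.2 against 41.2 in the control, Junb 263 against 219, Jund 1225 against 1017, and Jun 157 against 145. Ier2 was 242 against 219.6 and Dusp1 93.7 against 100.5. None had an unadjusted p under 0.05.

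Levels between genes were compared per kilobase of exon. In all 4 groups Jund and Zfp36 held the top 2 ranks, and Egr2 the lowest. In deletion controls, Jund had 923 normalized reads per kilobase and Zfp36 had 527, while Egr2 had 2.04. Zfp36 was above Jund after deletion, at 1268 against 1190.1. Zfp36 was above 93.8% of all genes per kilobase in deletion controls and above 98.0% after deletion. Fos ranked at position 6 in deletion controls and at position 8 in both knockdown groups, above 59.6% of genes in the former and 41.1% in knockdown controls. In deletion control library A alone, its 12.7 normalized reads were below the knockdown control mean.

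**Figure D4:**
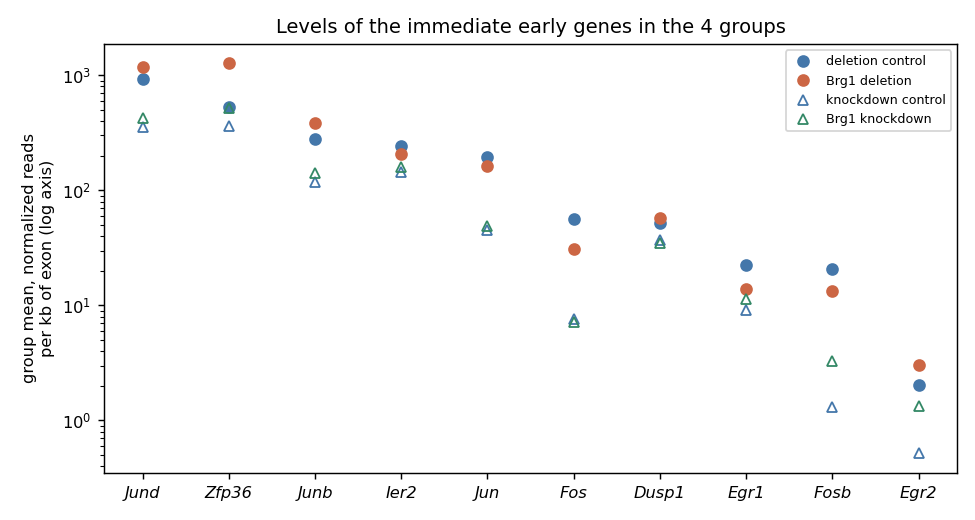
Group means of the 10 genes in normalized reads per kilobase of exon (log axis) in the deletion control, Brg1 deletion, knockdown control and Brg1 knockdown groups. Jund and Zfp36 are highest in every group, Egr2 is lowest, and all 10 genes lie lower in the knockdown groups than in the matching deletion groups, whose table was normalized separately.

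Other genes of the pathway were taken from lists. Of 27 other immediate early genes listed in the deletion table, 1 was called, Plk2, and it rose, beside 1.47% of all genes called and 0.732% called higher. As for Zfp36, limma without pairing does not keep this call, since 0 of 17001 genes passed there. Plk2 is a polo-like kinase induced by growth signals and p53. It had 80.9 and 112 normalized reads in the controls and 508 and 360.5 in the deleted libraries. Both deleted libraries were above both controls, and the authors' deposited table has means of 96.5 and 434 (log2 fold change 2.17, adjusted p = 0.0003). For the knockdown it has 58.8 and 227 (log2 fold change 1.95, unadjusted p = 0.0072, adjusted p = 1).

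Egr3, the close relative of Egr2, did not pass the test in either experiment. It had 6.83 and 9.01 normalized reads in the deletion controls and 47.5 and 38.4 in the deleted libraries, which do not overlap. Its deposited log2 fold change was 2.44 (adjusted p = 0.0939), and 3.64 after knockdown (3.48 to 43.2) with an unadjusted p of 0.0691. Per1, a clock gene with an early response, had a deposited log2 fold change of 1.11 (adjusted p = 0.114). Myc, the growth regulator, had means of 1938 and 517 (adjusted p = 0.146, authors' deposited table). The list's median log2 fold change was 0.50 after deletion. Of its 27 genes, 18 were above 0 and 9 below, where 50.1% of all genes were below 0. At an unadjusted p under 0.05 there were 6. The share of all genes at that unadjusted p was not computed, here or for the later lists, so no excess can be read from such counts. The list's median was 0.10 after knockdown, where 0 of 28 were called, beside 0.218% of all genes, and 1 had an unadjusted p under 0.05.

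**Figure D5:**
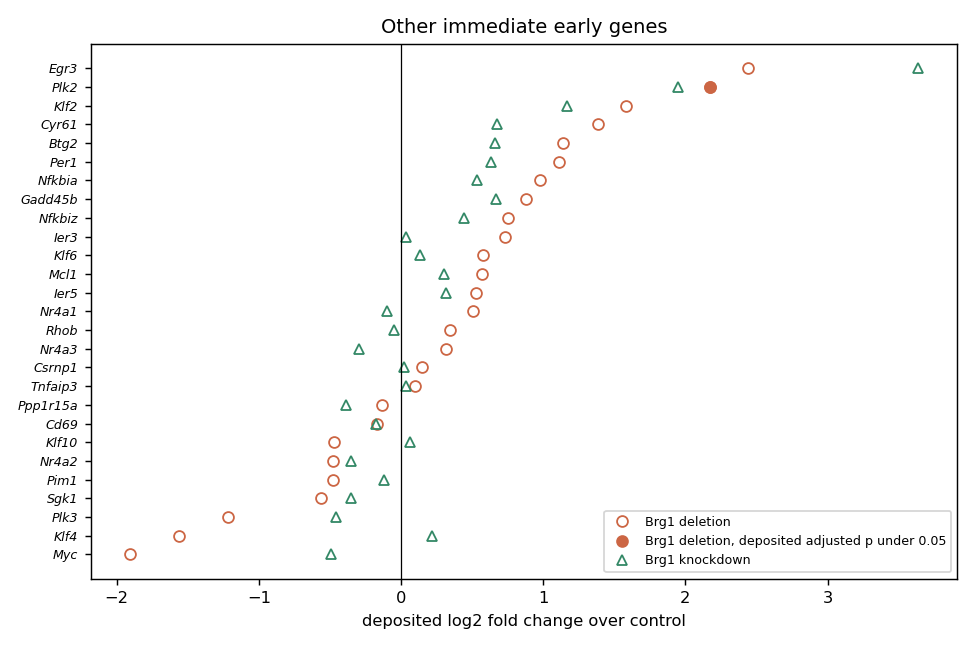
Deposited log2 fold changes (x axis) of the 27 other immediate early genes listed in the deletion table after deletion (orange circles) and knockdown (green triangles), sorted by the deletion value. Plk2 at 2.17 is the one filled point, for a deposited adjusted p under 0.05, and Egr3 has the highest value in both experiments.

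The partners and regulators of the members gave no call, beside 1.47% of all genes called after deletion and 0.218% after knockdown. At these shares, 0 calls in lists of 11 to 20 genes does not set them apart from all genes. Among other AP-1 and bZIP partners, 0 of 12 were called after deletion and 0 of 11 after knockdown, and 0 and 0 had an unadjusted p under 0.05. Jdp2, which represses AP-1 sites, had the lowest p of these, with means of 46.1 and 10.7 after deletion and an unadjusted p of 0.0871. Of the 12, 4 were higher in control B and deleted A than in the other library of their genotype, a share of 33.3% beside 34.3% of all genes. Among these, Atf3, a stress-induced partner of JUN, had 24.4 and 74.1 normalized reads in the controls and 63.9 and 18.6 in the deleted libraries. Among SRF, TCF, MRTF and CREB regulators, 0 of 13 were called in each experiment. Their unadjusted p was under 0.05 for 0 genes after deletion and for 1 after knockdown, the TCF gene Elk3, with a log2 fold change of 0.53. Of 20 ERK, JNK and p38 cascade genes, 0 were called in each experiment. Mapk8, which encodes JNK1, had an unadjusted p of 0.0492 after deletion and a log2 fold change of 0.75.

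Feedback genes of the MAPK cascades gave 0 calls of 12 after deletion and 0 of 13 after knockdown in the authors' test. Beside 1.47% and 0.218% of all genes called, this does not set the list apart. At an unadjusted p under 0.05 there were 3 and 4 genes, with no share of all genes beside them. Spred2, an inhibitor of RAS to RAF signalling, had 339 and 194 normalized reads in the controls and 70.0 and 83.7 in the deleted libraries. Both deleted libraries were lower, with a deposited log2 fold change of -1.80 (adjusted p = 0.178), and after knockdown it was -1.24 (adjusted p = 0.255). Dusp5, a nuclear ERK phosphatase, had 303 and 441 in the controls and 1137 and 739.6 in the deleted libraries. The deposited log2 fold change was 1.33 (adjusted p = 0.151), and 0.82 after knockdown (adjusted p = 0.358). Dusp7, a cytoplasmic ERK phosphatase, had a deposited log2 fold change of -1.10 (adjusted p = 0.124).

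The ZFP36 family and CCR4-NOT deadenylase list, which holds the partners of Zfp36, had 0 calls of 12 in each experiment. Among all genes, 1.47% were called after deletion and 0.218% after knockdown. After deletion 1 gene had an unadjusted p under 0.05 and after knockdown 0. That gene was Zfp36l2, a relative of Zfp36 that restrains the cell cycle in developing B cells, with deposited means of 3578 and 6527 (adjusted p = 0.547). Zfp36l1, the third family member here, had 1383 and 2436 normalized reads in the controls and 2461 and 1411 in the deleted libraries. The control and deleted libraries overlapped for Zfp36l1, in contrast to Zfp36.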

How the data were processed

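Polyadenylated RNA from 10 libraries in 4 groups was used, and the other 16 samples of the series were not analysed here. CASAVA, RSEM and DESeq with mm10 are named in the submitters' processing notes, with no versions. The group means are a signal in reads divided by size factors by the authors, per the headers and the values themselves. A log2 fold change, a signed fold score, a p-value and an adjusted p-value were deposited by the authors, per the file headers, and their adjusted p under 0.05 is the call used. Exon length was deposited too.

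Whole reads per library were worked back from each mean (tolerance 6e-05), which assumes 1 size factor per library. All 19404 genes of the deletion table had a solution and 18579 had 1 only. Recovery and limma were run on simulated data as a check of the code. The spread simulated for limma was set in advance and not taken from these libraries. That check therefore does not show how many changed genes limma would find here. limma 3.58.1 in R 4.3.3, with a trend, was run as an alternative on 17001 genes (mean of at least 1), on the log2 of (reads plus 0.5) divided by the size factor. Python 3.11.15 was used elsewhere. Named genes were the members, Smarca4, up to 4 genes per list by lowest adjusted p, and 5 nearest genes. Atf3, Marco, S100a8, S100a9, Il7r, Zfp36l1, Hspa1a, Hspa1b and Bag3 were named after their values were seen. The members and lists were chosen with earlier results of these data known.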

Additional observations from a re-analysis of the deposited data

How the results depend on the processing

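The call of 1 member after deletion kept its count under an adjusted p under 0.1, a minimum of 1.5-fold, adjustment over listed genes, both means of at least 10 and removal of confounded genes. It became 0 in limma on recovered reads without pairing, and 0 with libraries joined the other way as a block, an alternative chosen after seeing the data. Joined by similarity (control A with deleted B, control B with deleted A), 2991 of 17001 genes (17.6%) and 1 member, Zfp36 with an adjusted p of 0.0025, were called. That joining was chosen from the values themselves. Leaving out each library in turn gave 0 to 0 members called, with a Zfp36 log2 difference from 0.96 (without control A) to 1.63 (without control B). In those fits the lone library is assumed to vary like the other group. The members' median log2 fold change after deletion ranged from -0.34 (without control A) to 0.87 (without control B), and the number below 0 from 2 to 7. The 5 knockdown alternatives for calls left 0 members called. The 3 for the median and the 3 for the count below 0 stayed near the reported values. No paired analysis was possible because the recovered libraries carry no replicate number, so neither of the 2 possible joinings above can be tied to the labels. Reads of 5 to 17 per library limit Egr2, and 2 libraries per group limit every deletion comparison.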

Other observations

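Of 11 listed heat shock genes, 2 were called after deletion, both lower, beside 0.742% of all genes called lower. The list's median log2 fold change was -1.01. Hspd1 and Hspe1, the mitochondrial chaperonin pair, fell in the authors' deposited table, with log2 fold changes of -1.74 (adjusted p = 0.002) and -1.34 (adjusted p = 0.0186). Hspe1 had 1282 and 1299.97 normalized reads in the controls and 517 and 506 in the deleted libraries, so the genotypes did not overlap. Of 7 resolved heat shock genes 4 did not overlap, beside 48.3% of all 17001 resolved genes. Those that overlapped were Hspa1a, Hspa1b and Bag3. Hspa1b had 55.6 and 64.0 in the controls and 58.7 and 66.3 in the deleted libraries. In limma without pairing, 0 of 17001 genes passed, Hspe1 among those tested. After knockdown 0 of 11 heat shock genes were called, beside 0.218% of all genes. At an unadjusted p under 0.05 there was 1, Hspd1, with a log2 fold change of -0.61.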
